A study of Mus musculus with 10 samples.

Results

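The HGF receptor, its ligand and the plasminogen activator system were followed in mouse neural retina after light damage through 5 genes, *Met*, *Hgf*, *Plau*, *Plat* and *Plaur*. They were taken by gene symbol from the 54532 genes of the deposited expression table, and all 5 were found there once. Hepatocyte growth factor (HGF), encoded by *Hgf*, is secreted as an inactive single chain and binds the receptor tyrosine kinase MET once it has been cleaved, and MET then signals through adaptors to the MAPK, PI3K and STAT3 pathways. Urokinase (uPA, *Plau*) and tissue plasminogen activator (tPA, *Plat*) are serine proteases that cleave plasminogen to plasmin, a broad protease of fibrin and extracellular matrix. The urokinase receptor uPAR (*Plaur*) holds uPA at the cell surface, and urokinase is also among the proteases reported to cleave pro-HGF. HGF itself has the fold of a plasminogen-like protease without the activity. In nervous tissue, HGF is known as a trophic factor, and tPA and uPA for their part in matrix breakdown after injury.

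The retinas came from 2-month-old mice of the inbred albino strain BALB/c. All mice first spent 12 hr in darkness. The 5 retinas of the normal light group (NL, replicates 1, 4, 5, 7 and 8) were then from mice at 200 lux, and the 5 of the light damage group (LD, replicates 1, 4, 6, 7 and 8) from mice at 15000 lux, for 1 day in both groups. The comparison of the groups asks which genes respond to damaging light.

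Levels are given as FPKM, a measure per gene length and library size, so that 2 genes can be set side by side. The NL retinas held 21343389 to 26832535 reads and the LD retinas 18965090 to 23378090. A gene was called changed where limma gave an adjusted p below 0.01 and the fold was over 2, on log2(FPKM + 0.1), a scale that understates the change of low genes. By that rule 4.13% of the 24508 genes tested were higher and 2.37% lower after LD. In 11.8% of them every LD value lay above every NL value. The paper describes the columns of each group as 5 biological replicates, but the labels do not say whether 2 retinas came from 1 mouse. The p-values take the 10 samples as independent, which the labels do not settle. The reads of NL-5 and NL-7, of LD-1 and LD-7, and of LD-4 and LD-6 resembled each other more (chi-square per gene 2.65 to 3.65) than those of the other pairs within a group (12.2 to 43.4). The tests of the 5 genes, of the ratios and of the called genes of the lists were repeated with these pairs averaged.

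The tissue held the markers of a neural retina. The summed level of 8 rod markers was 8062 to 9878 FPKM under NL against 1199 to 2413 FPKM after LD, and 8 of the 8 were called lower. From the RNA of such bulk samples alone, fewer cells of a type and less RNA per cell cannot be told apart. For the same strain, light level and exposure time, the paper reports no obvious degeneration of the neural retina. It reports significant degeneration after a longer exposure. The number of rods in the retinas sequenced here was not tested. The sum of 8 markers of the retinal pigment epithelium, a layer outside the neural retina, was 49.0 to 143 FPKM under NL and 56.6 to 106 FPKM after LD, so that some of its RNA was in both groups. Most of the sum was *Ttr*, at 57.6 ± 23.9 and 68.3 ± 17.2 FPKM. *Tyrp1* was uneven under NL, at 4.23 and 7.70 FPKM in NL-1 and NL-8 and 0.550 to 1.32 FPKM in the other NL retinas.

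*Hgf*, the ligand, was the member with the smallest difference between the groups. *Hgf* lies on chromosome 5 from 16553495 to 16620152 (GRCm38, plus strand). Under NL its level was 0.644, 0.832, 1.02, 0.937 and 0.777 FPKM in replicates 1, 4, 5, 7 and 8, and after LD it was 0.810, 1.11, 1.29, 0.703 and 0.938 FPKM in replicates 1, 4, 6, 7 and 8. The groups overlapped, with the highest NL retina above 3 of the 5 LD retinas. The means were 0.842 ± 0.146 and 0.971 ± 0.236 FPKM, respectively (SD, n = 5 each). The log2 fold change was 0.17 (standard error 0.18, 95% interval -0.24 to 0.58, limma adjusted p = 0.542), and the two-sided exact permutation test gave p = 0.365. The upper end of the interval is short of a doubling, which is a log2 fold change of 1. An exon of *Hgf* overlaps the predicted gene *Gm43489* on the same strand, which had at most 5 reads in any retina against 99 to 208 reads of *Hgf*.

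*Met*, the receptor, rose 3.10-fold after LD. *Met* lies on chromosome 6 from 17463800 to 17573980 (plus strand), and its exons overlap no other annotated gene. Its level under NL was 2.08, 2.01, 2.21, 2.18 and 2.25 FPKM in replicates 1, 4, 5, 7 and 8, an SD of 0.0996 around a mean of 2.15 FPKM. After LD it was 4.56, 8.37, 7.81, 5.11 and 7.46 FPKM in replicates 1, 4, 6, 7 and 8, with a mean of 6.66 ± 1.71 FPKM (SD, n = 5). The NL retinas were thus nearly level, whereas LD-1 and LD-7 were lower than the other LD retinas, and the lowest LD retina was still above the highest NL retina. Behind these values stood 328 to 446 reads (NL) and 854 to 1342 reads (LD). The log2 fold change was 1.55 (standard error 0.16, limma adjusted p = 5.74e-05), and the exact permutation test gave p = 0.00794, the smallest that 5 against 5 retinas allow.

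The RNA of the receptor rose relative to that of its ligand. The log2 ratio of *Met* to *Hgf* was between 1.04 and 1.55 under NL and between 2.36 and 2.86 after LD, with no overlap. Its mean rose by 1.38 (standard error 0.13) from 1.27 ± 0.21 to 2.65 ± 0.21 (SD, n = 5 each), with an exact permutation p of 0.00794 that was also 0.00794 after adjustment over the 4 ratios compared.

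*Plau*, which encodes urokinase, had the largest fold change of the 5 genes. It lies on chromosome 14 from 20836660 to 20843385 (plus strand). Under NL its level was 0.138, 0.0796, 0.0208, 0.0398 and 0.229 FPKM in replicates 1, 4, 5, 7 and 8, which is 1 to 14 reads per retina. After LD it was 3.40, 3.33, 3.21, 4.01 and 1.39 FPKM in replicates 1, 4, 6, 7 and 8, or 73 to 216 reads. LD-8 was the lowest of the LD retinas and yet well above each NL retina. The mean rose 30.2-fold, from 0.102 ± 0.0844 to 3.07 ± 0.989 FPKM (SD, n = 5 each), and the log2 fold change was 3.99 (standard error 0.34, limma adjusted p = 1.50e-05, exact permutation p = 0.00794). The size depends on the constant added before the logarithm, with 1.84 at a constant of 1 and 5.07 at 0.01. By its log2 fold change *Plau* ranked 48 among the 24508 genes tested. It reached 0.1 FPKM in 7 retinas, of which 2 were NL retinas. It thus entered the limma test through the LD group, and its limma p-value and rank are not independent support.

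*Plat*, which encodes tPA, was at a higher level than *Plau* in every retina and rose by less. *Plat* lies on chromosome 8 from 22757727 to 22782844 (plus strand). Its level under NL was 2.67, 1.64, 2.79, 2.61 and 2.41 FPKM in replicates 1, 4, 5, 7 and 8, with NL-4 the lowest. After LD it was 8.71, 7.35, 8.44, 8.52 and 4.56 FPKM in replicates 1, 4, 6, 7 and 8, with LD-8 again the lowest and no overlap with NL. The mean rose 3.10-fold from 2.42 ± 0.460 to 7.52 ± 1.74 FPKM (SD, n = 5 each). On the log2 scale the change was 1.58 (standard error 0.20, limma adjusted p = 1.85e-04, exact permutation p = 0.00794).

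*Plaur*, the receptor that uPA binds, was near the floor of detection under NL. It lies on chromosome 7 from 24462484 to 24475968 (plus strand). Its level was 0.161, 0.0360, 0.0565, 0.0720 and 0.118 FPKM in NL replicates 1, 4, 5, 7 and 8, from 2 to 9 reads each, and 1.32, 1.02, 0.991, 1.44 and 0.652 FPKM in LD replicates 1, 4, 6, 7 and 8, from 38 to 86 reads each. As for *Plau*, LD-7 was the highest and LD-8 the lowest of the LD retinas. The mean rose 12.2-fold from 0.0888 ± 0.0505 to 1.08 ± 0.309 FPKM (SD, n = 5 each), and the log2 fold change was 2.65 (standard error 0.25, limma adjusted p = 3.21e-05, exact permutation p = 0.00794). With a constant of 1 the log2 fold change was 0.92 (limma adjusted p = 6.86e-05), below the 2-fold limit. *Plaur* reached 0.1 FPKM in 7 retinas, of which 2 were NL retinas. It thus entered the limma test through the LD group, and its limma p-value is not independent support.

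**Figure D1:**
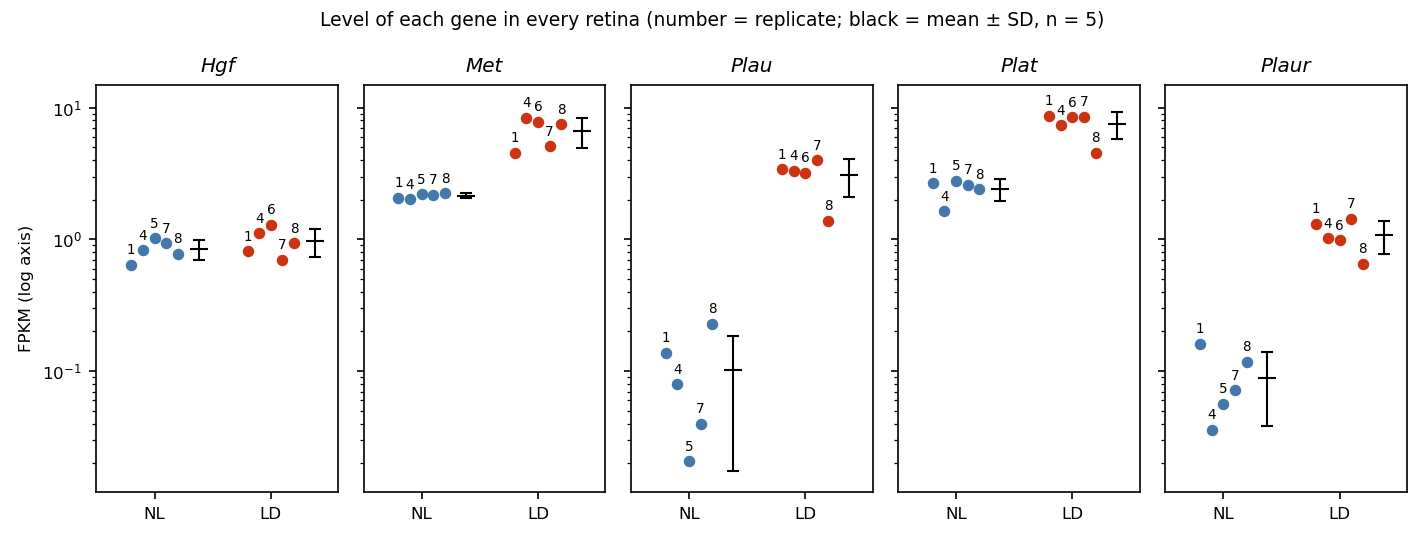
FPKM of *Hgf*, *Met*, *Plau*, *Plat* and *Plaur* on a logarithmic axis in the 5 NL (blue) and 5 LD (red) retinas, each point a retina with its replicate number and the black bar the mean ± SD. The NL and LD points are apart for 4 genes and overlap for *Hgf*, and *Plau* and *Plaur* start at 0.0208 to 0.229 and 0.0360 to 0.161 FPKM.

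In all, 4 of the 5 genes were called higher and did not overlap between the groups. Among all genes tested, 4.13% were called higher, and in 11.8% every LD value lay above every NL value. *Plau* and *Plaur* reached the minimum of 0.1 FPKM in 7 retinas each, 5 LD and 2 NL, so they entered the test through the LD group and had to differ to be tested; *Met*, *Plat* and *Hgf* reached it in all 10. Averaging the closest pairs left 4 NL and 3 LD samples and log2 fold changes of 1.59 for *Met*, 3.69 for *Plau*, 1.51 for *Plat* and 2.50 for *Plaur*, all still called, with limma adjusted p-values from 0.00114 to 0.00698.

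The order of the 5 levels changed with light. Under NL, *Plat* and *Met* were highest and overlapped (*Plat* above *Met* in 4 of 5 retinas), *Hgf* came next without overlap with any other member, and *Plau* and *Plaur* were lowest and overlapped (*Plau* above *Plaur* in 2 of 5 retinas). After LD, *Plat* and *Met* were again highest and not separable (*Plat* above *Met* in 3 of 5 retinas). *Plau* then came next in every retina, with a mean 3.16 times that of *Hgf* and no overlap with it. *Plaur* and *Hgf* were last and overlapped, *Plaur* being above *Hgf* in 2 of 5 LD retinas.

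The RNA of urokinase rose relative to that of tPA but stayed below it. The mean of *Plau* was 4.19% of the mean of *Plat* under NL and 40.8% after LD. The log2 ratio of *Plau* to *Plat* was -3.54, -3.27, -4.58, -4.28 and -2.93 in NL replicates 1, 4, 5, 7 and 8, and -1.33, -1.12, -1.37, -1.07 and -1.65 in LD replicates 1, 4, 6, 7 and 8. It rose by 2.41 (standard error 0.33) without overlap (exact permutation p = 0.00794, adjusted 0.00794 over the 4 ratios). The size of this rise depends on the constant added. At a constant of 1 it was 0.55 (exact permutation p = 0.0106 after adjustment), and at 0.01 it was 3.45. The mean of *Plaur* was 3.66% of that of *Plat* under NL and 14.4% after LD, and the log2 ratio rose by 1.07 (standard error 0.17, exact permutation p = 0.00794, adjusted 0.00794). This ratio turns over with the constant added to the low values: at a constant of 1 it fell by 0.37, and at 0.01 it rose by 1.96. *Plau* and *Plaur* reached 0.1 FPKM in 2 NL retinas each, so both ratios rest on low NL values.

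**Figure D2:**
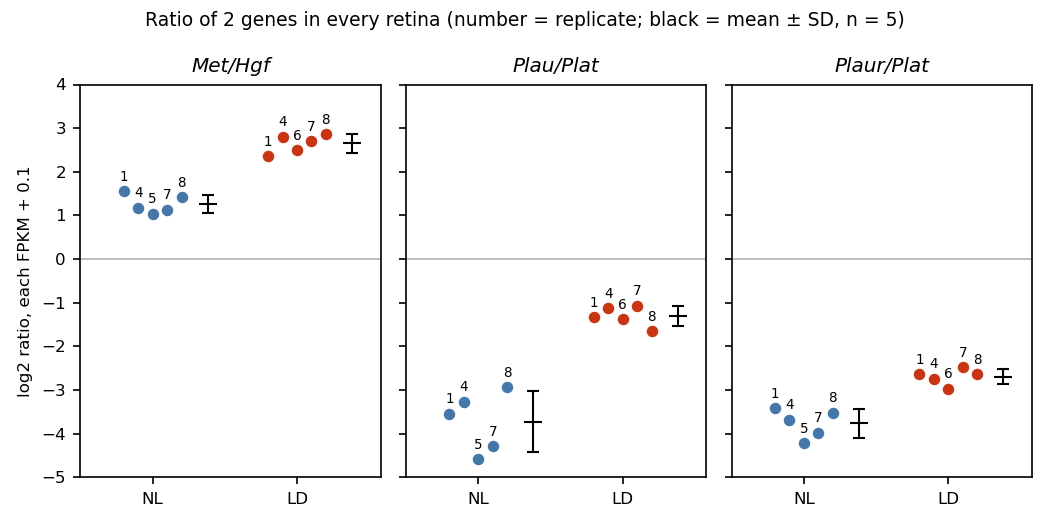
Log2 ratio of 2 genes (FPKM + 0.1 each) in the 5 NL (blue) and 5 LD (red) retinas, numbered by replicate, with the mean ± SD in black. The ratios *Met*/*Hgf*, *Plau*/*Plat* and *Plaur*/*Plat* are higher in every LD retina than in any NL retina (with a constant of 1 in place of 0.1, *Plaur*/*Plat* is lower after LD), and the lowest point is *Plau*/*Plat* in NL-5 at -4.58.

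Among the LD retinas the 5 genes did not vary together. *Plau*, *Plat* and *Plaur* were lowest in LD-8, at 1.01, 0.67 and 0.61 below their LD means on the log2 scale, where *Met* was 0.20 above its LD mean. In LD-1 and LD-7 the proteases and *Plaur* were 0.22 to 0.45 above their means, whereas *Met* was 0.50 and 0.34 and *Hgf* 0.21 and 0.39 below theirs. In LD-4 and LD-6, *Met* was 0.37 and 0.27 and *Hgf* 0.21 and 0.41 above theirs. Since LD-1 resembled LD-7 and LD-4 resembled LD-6 in all their reads, the 5 may not be independent observations, and the pattern is a description without a test.

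Marker genes of other cell types moved alongside. The sum of 6 microglia markers was 8.60 to 11.3 FPKM under NL and 21.4, 12.3, 12.7, 18.0 and 8.59 FPKM in LD replicates 1, 4, 6, 7 and 8, so that LD-1 and LD-7 were highest and LD-8 lowest, as for *Plat* and *Plaur*, and LD-8 was no higher than the NL retinas. Of these, *Cx3cr1* and *Aif1* were called higher, *P2ry12* and *Siglech*, with log2 fold changes of -0.74 and -0.63, were not called, and no marker was at 0. The sum of 7 markers of monocytes and macrophages was 1.16 to 3.11 FPKM under NL and 6.64 to 13.8 FPKM after LD, highest in LD-4 and LD-6 and lowest in LD-8. Of the 3 that were tested, *Lyz2*, *Adgre1* and *Plac8*, each was called higher. *Plac8* reached 0.1 FPKM in LD retinas alone, and 4 markers (*Ly6c2*, *Ccr2*, *Ms4a7* and *F13a1*) did not pass the filter, so this count is partly set by the filter. *Ly6c2* was at 0 in every NL retina. The 8 neutrophil markers summed to 0.325 to 0.799 FPKM under NL and 0.356 to 0.999 FPKM after LD, with *Elane* at 0 in all retinas. The 6 Müller glia markers summed to 1086 to 1316 FPKM under NL and 521 to 720.1 FPKM after LD. Most of this difference was *Glul* (glutamine synthetase), the 1 of 6 that was called, at 711 ± 94.8 and 165 ± 8.77 FPKM. *Dkk3* (240.5 and 241 FPKM) and *Aqp4* (29.0 and 31.1 FPKM) had like means in both groups, and *Slc1a3* was at 26.2 ± 1.79 and 37.5 ± 7.58 FPKM, higher in every LD retina but not called. *Abca8a* was at 47.5 ± 2.69 and 28.4 ± 3.75 FPKM, lower in every LD retina but not called. *Rlbp1* was at 135 ± 17.7 and 98.5 ± 36.8 FPKM, with overlap, and was not called. The sum of 7 endothelial markers was 12.3 to 17.7 FPKM under NL and 12.7 to 28.8 FPKM after LD, and that of 6 bipolar cell markers 265 to 331 and 246 to 358 FPKM, both highest in LD-4 and LD-6, as *Met* and *Hgf* were. The summed markers of pericytes, ganglion cells and Müller glia were also highest in those 2 retinas, and those of endothelium and pericytes were, like the microglia markers, lowest in LD-8. The part of any of these cells in the change of the 5 genes was not tested.

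**Figure D3:**
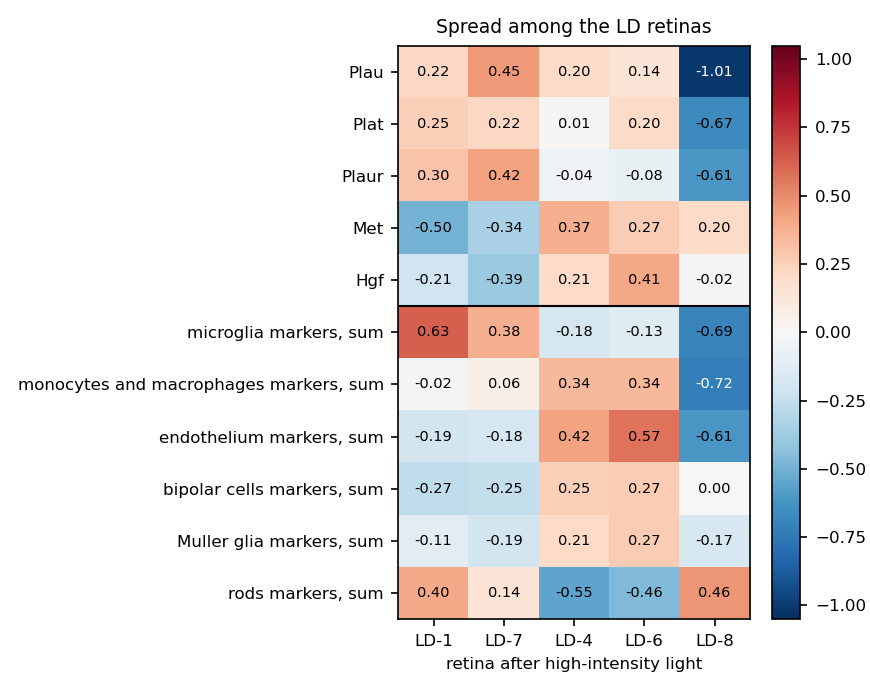
Log2 deviation of each of the 5 LD retinas (columns) from their mean, for the 5 genes and for the summed markers of 6 cell types (rows), with red above and blue below the mean. *Plau*, *Plat* and *Plaur* are lowest in LD-8 (-1.01, -0.67 and -0.61), as are the markers of microglia (-0.69), monocytes and macrophages (-0.72) and endothelium (-0.61), and *Met* is lowest in LD-1 (-0.50) and LD-7 (-0.34).

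The protein-coding genes whose profile over the 10 retinas was nearest to that of a member, by the root mean square difference of the centred log2 values, differed between the members. Nearest to *Plaur* were *Mpeg1* (0.204) and *Cd68* (0.219), both genes of macrophages and microglia, and *Phf11d* (0.221). Nearest to *Met* were *Pml* (0.115), *Ercc1* (0.151) and *Tmco4* (0.156), and nearest to *Plat* were *Slfn5* (0.164), *Ptpn6* (0.206) and *Pqlc3* (0.211). *Plau* had *A2m* (0.345), *Ifit3b* (0.399) and *Tcstv1* (0.407) as its nearest genes, and *Hgf*, whose profile was nearly flat, had *Esam* (0.0597), *Begain* (0.0787) and *Mif* (0.0969). These distances are descriptive, and were taken over 12689 genes. The shift from NL to LD is part of each distance, so the nearest genes are mainly genes of like fold change. In which cells the RNA of a member changed was not tested. The distances use log2(FPKM + 0.1), a scale that understates the change of low genes such as *Plau* and *Plaur*.

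Promoter windows of 300 bases (250 before the start of transcription and 50 after it, RefSeq, GRCm38.p6) were used for 3 of the 5 genes, *Met*, *Plaur* and *Hgf*. Stretches of *Met* and *Plaur* are shown because both genes were called higher after LD. AP-1, a factor that MAPK signaling activates, binds TGANTCA. On both strands this motif was in the windows of *Met* and *Plaur*, and in 7.81% of the 32851 windows of all genes. The stretch of *Plaur* is the part of chr7:24462233-24462482 before its first base in the table, and that of *Met*, chr6:17463893-17463919, lies in an annotated *Met* exon, both on the plus strand and with the AP-1 match in capitals.
Plaur: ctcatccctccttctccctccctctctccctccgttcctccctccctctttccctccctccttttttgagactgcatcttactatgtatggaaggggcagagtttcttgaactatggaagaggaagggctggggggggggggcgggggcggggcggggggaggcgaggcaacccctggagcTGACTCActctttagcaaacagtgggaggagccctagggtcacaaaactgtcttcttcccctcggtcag
Met: gttgcccggcTGAGTCAcgggccgggc
Both windows also hold 3 matches each, overlapping ones included, of GGGCGG, the GC box, which is in 35.7% of all windows, and neither holds TGACGTCA, the CRE, which is in 1.79%. In the 2 windows of *Hgf* none of the 3 motifs was found, which says only that these letters are not there. A match is not evidence that a factor bound.

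The genes that act with the members were described through 8 lists, 55 genes in all, of which 51 passed the filter. Of these, 11 were called higher and 1 lower, beside 4.13% and 2.37% of all genes tested. The median log2 fold change was 0.32, beside -0.01 for all genes tested.

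Of the 7 genes for the cleavage of pro-HGF, 5 were tested and 0 were called, by limma or by limma-voom on the recovered reads. An unadjusted p under 0.05 was reached by 2 of the 5, *St14* and *Spint1*, beside 38.2% of all genes tested. *St14* reached 0.1 FPKM in 6 retinas, of which 1 was an NL retina, so it entered the test through the LD group. *St14*, which encodes matriptase, one of the proteases that cleave pro-HGF, was at 0.0861 ± 0.0313 (NL) and 0.245 ± 0.110 FPKM (LD; log2 fold change 0.85, adjusted p = 0.0292). *Spint1* (HAI-1), an inhibitor of these proteases, was at 0.655 ± 0.136 and 0.367 ± 0.112 FPKM (log2 fold change -0.70, adjusted p = 0.0370), and its relative *Spint2* at 14.7 ± 2.60 and 12.8 ± 3.23 FPKM (adjusted p = 0.411). *Hgfac*, the HGF activator, had 2 to 8 reads per retina under NL, 3 to 6 after LD, and was not tested. *Mst1* and *Mst1r*, the ligand and receptor most like HGF and MET, were not called, with log2 fold changes of -0.34 and 0.23.

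Of 5 membrane partners of MET, 3 were called higher and none lower. *Plxnb1* fell from 22.4 ± 0.884 to 15.2 ± 1.99 FPKM, with every LD retina below every NL retina. Its log2 fold change of -0.56 (limma adjusted p = 5.53e-04) is within the 2-fold limit. *Nrp1* was higher in every LD retina, also within that limit (log2 fold change 0.72, limma adjusted p = 0.00448). *Cd44*, a hyaluronan receptor of which some isoforms act as coreceptors of MET, rose 8.05-fold, from 1.85 ± 0.275 to 14.9 ± 1.70 FPKM (SD, n = 5 each), with NL values of 1.60 to 2.15 FPKM and LD values of 12.4 to 17.0 FPKM (log2 fold change 2.95, standard error 0.11, limma adjusted p = 4.86e-08). The table gives no value per isoform. *Itga6* and *Itgb4*, which encode the chains of the laminin receptor α6β4 integrin, rose from 0.790 ± 0.108 to 1.97 ± 0.419 FPKM and from 0.395 ± 0.0991 to 0.958 ± 0.191 FPKM (log2 fold changes 1.20 and 1.10). With a constant of 1 their log2 fold changes were 0.72 and 0.49, below the 2-fold limit. With the closest pairs averaged these 2 were no longer called (adjusted p = 0.0160 and 0.0305), and without NL-7 *Itgb4* was below the fold limit at 0.98.

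Downstream of the receptor, 1 of 12 adaptor and effector genes was called. *Stat3*, a transcription factor of cytokine and growth factor receptors, rose 3.59-fold from 12.3 ± 2.10 to 44.1 ± 3.96 FPKM (log2 fold change 1.85, standard error 0.11, adjusted p = 1.25e-06). The other 11 had log2 fold changes from -0.30 (*Pik3ca*) to 0.90 (*Gab1*, the main docking protein of MET, from 4.92 ± 0.509 to 9.30 ± 1.38 FPKM). *Gab1* was higher and *Pik3ca* lower in every LD retina, both within the 2-fold limit (limma adjusted p = 1.51e-04 and 0.00407). The median of the 12 was 0.11. At a limma adjusted p under 0.05 with no minimum fold, 6 of the 12 were higher and 2 lower. Among all 24508 genes tested, 6818 passed that limit in either direction. Of 6 genes that attenuate MET, 1 was called, the phosphatase gene *Ptpn1* (9.42 to 10.5 FPKM under NL, 19.5 to 25.0 FPKM after LD, log2 fold change 1.16, adjusted p = 1.76e-06). *Cbl*, the ubiquitin ligase that sends MET to degradation, had a log2 fold change of -0.14 (adjusted p = 0.137).

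Plasminogen itself, the substrate of uPA and tPA, was barely detected. *Plg* had 1 to 4 reads per retina under NL, 1 to 5 after LD, and was not tested. Of 6 genes tested among plasminogen and the inhibitors of its activators or of plasmin, 2 were called, both higher. *Serpinb2* (PAI-2), an inhibitor of uPA, had no read in 4 NL retinas and 1 read in the other, and 33 to 63 reads in the LD retinas, where its level was 0.871 ± 0.204 FPKM (SD, n = 5). Against a floor of 3 reads per retina its LD mean was at least 14.9-fold higher. Its limma adjusted p was 1.01e-06, but it reached 0.1 FPKM in the 5 LD retinas and in 0 NL retinas, so it was tested only because it was high after LD, and with a constant of 1 its log2 fold change of 0.89 was below the 2-fold limit. *A2m*, a general protease inhibitor that also takes up plasmin, rose 17.8-fold, from 2.48 ± 0.994 to 43.9 ± 9.20 FPKM (log2 fold change 4.15, standard error 0.25, adjusted p = 1.26e-06).

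The inhibitors *Serpine2* and *Serpini1* were not called. *Serpine2* (protease nexin 1) was at 0.886 ± 0.0929 and 1.34 ± 0.214 FPKM (log2 fold change 0.54, adjusted p = 0.0163). *Serpini1* (neuroserpin), a neuronal inhibitor of tPA, was at 8.11 ± 0.356 and 6.38 ± 0.460 FPKM, with every LD retina below every NL retina, a log2 fold change of -0.34 (adjusted p = 0.00159) that is within the 2-fold limit.

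Among receptors and partners at the cell surface, both chains of one plasminogen receptor rose. *S100a10* and *Anxa2* encode the S100A10-annexin A2 complex, which binds tPA and plasminogen. *S100a10* rose 5.03-fold from 7.78 ± 1.35 to 39.2 ± 12.2 FPKM (log2 fold change 2.28, standard error 0.20, adjusted p = 1.88e-05) and *Anxa2* rose 3.72-fold from 2.19 ± 0.418 to 8.14 ± 2.59 FPKM (log2 fold change 1.81, standard error 0.21, adjusted p = 1.07e-04). Both were highest in LD-4 and LD-6, at 52.9 and 51.7 FPKM for *S100a10* and 10.8 and 11.0 FPKM for *Anxa2*, the retinas in which *Met* was also highest. The other plasminogen receptor genes, *Plgrkt* and *Eno1*, had log2 fold changes of 0.42 and -0.15 and were not called.

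Of 11 partners and clearance receptors of uPAR and of the activator-inhibitor complexes, 2 were called higher and 1 lower. *Itgam* and *Itgb2*, the chains of the integrin Mac-1 of microglia and other myeloid cells, rose from 0.154 ± 0.0187 to 0.658 ± 0.168 FPKM and from 0.381 ± 0.207 to 2.29 ± 0.469 FPKM (log2 fold changes 1.55 and 2.38, adjusted p = 1.29e-04 and 8.34e-05). With a constant of 1 the log2 fold change of *Itgam* was 0.52, below the 2-fold limit. *Vtn*, whose product vitronectin binds uPAR, fell from 268 ± 14.4 to 107 ± 26.4 FPKM (log2 fold change -1.36, standard error 0.16, adjusted p = 1.03e-04), and after LD it was lowest in LD-4 and LD-6 at 78.0 and 79.4 FPKM, where the rod markers were also lowest. *Vldlr*, a receptor that clears protease-inhibitor complexes, had a log2 fold change of -0.93 (adjusted p = 7.65e-05), within the 2-fold limit, and *Lrp1*, the main receptor of that kind, had one of 0.36 (adjusted p = 0.0191).

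**Figure D4:**
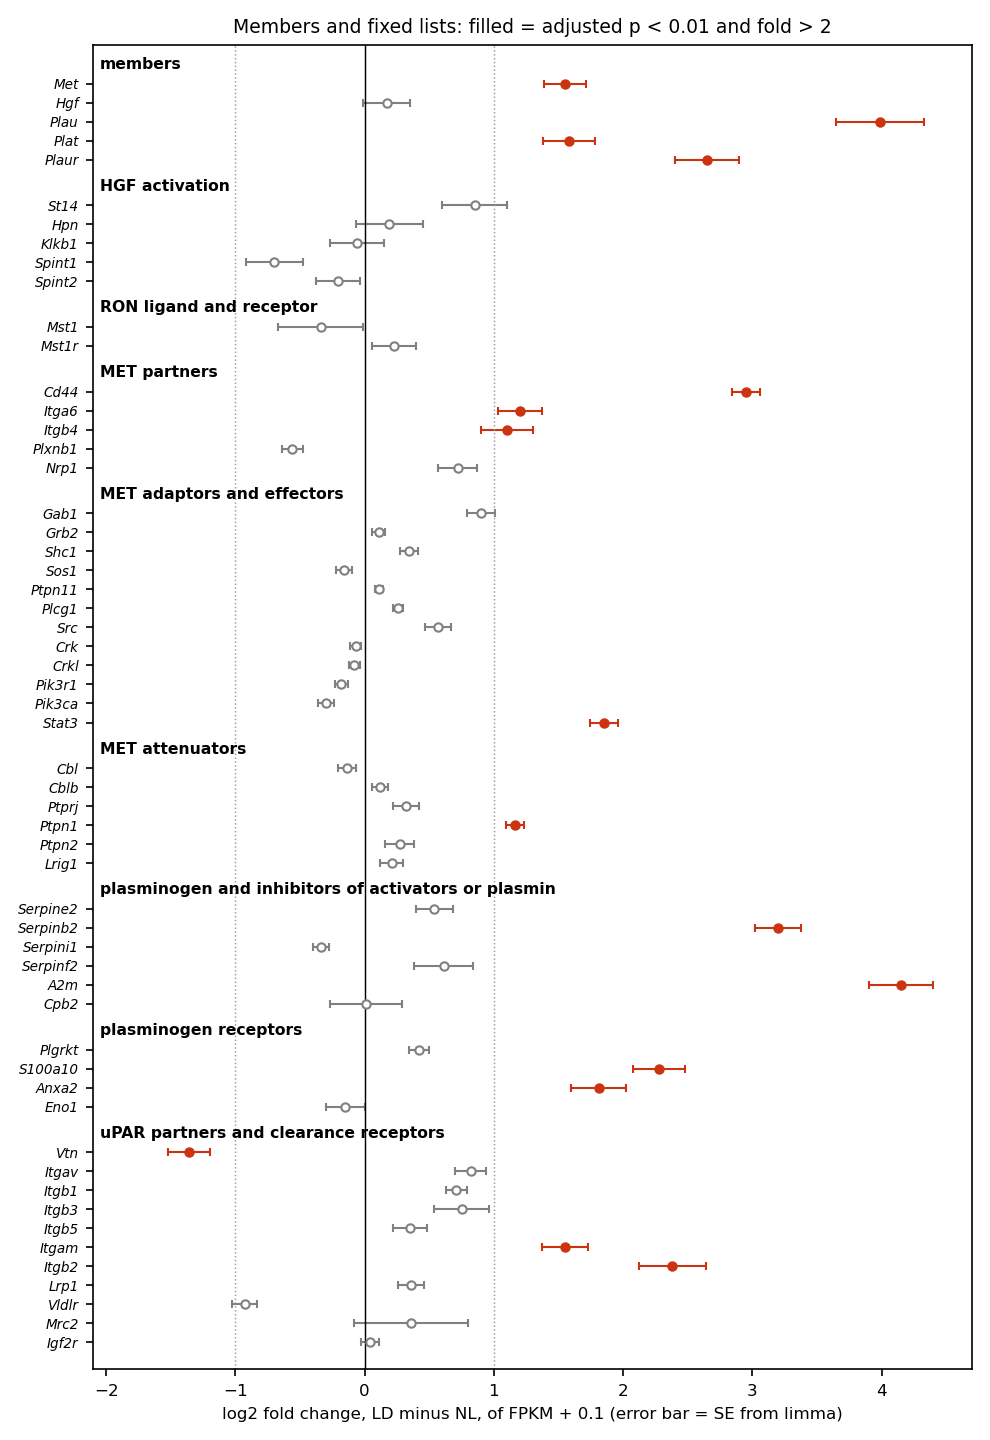
Log2 fold change (LD minus NL, of FPKM + 0.1) with its standard error from limma for the 5 members and the 51 tested genes of the 8 lists, with filled red points for called genes (adjusted p below 0.01, fold over 2) and dotted lines at a 2-fold change. *A2m* (4.15) and *Plau* (3.99) lie furthest to the right and *Vtn* (-1.36) furthest to the left.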

How the data were processed

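The authors deposited the FPKM of 54532 genes in 10 retinas as 1 table, with gene positions on GRCm38. The submitters' processing notes name Bowtie2 2.0.6, TopHat2 2.0.9 and the build mm8, which is another build than that of the positions; the counting program and any use of strand are not given in the sources used here. According to the paper's methods a company normalized the data. FPKM times gene length was a whole number of reads for 100.0% of the values (within 0.1 read), so that reads were recovered, at 18965090 to 26832535 per retina; the library sizes in the FPKM carry a factor of 0.951 to 0.968 for NL and 1.041 to 1.069 for LD.

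The sample labels give the groups and replicate numbers. The 24508 genes that reached 0.1 FPKM in 5 or more retinas were compared in limma 3.58.1 (R 4.3.3) on log2(FPKM + 0.1) with an intensity trend and no block, with Benjamini-Hochberg adjustment over these genes, and called where the adjusted p was below 0.01 and the fold over 2, the limits of the study's text. Adjusted p-values of single genes are from this fit. Each member and 4 ratios, of which 3 are shown, were put to a two-sided exact permutation test of the 10 retinas (scipy 1.17.1, numpy 2.4.6, pandas 2.3.3, Python 3.11.15; plots with matplotlib 3.10.9). The fit was tested on simulated data with known changes, put only into genes with an NL mean of at least 1 FPKM. This check does not cover lower genes such as *Plau*, *Plaur* and *Hgf*, nor retinas that resemble each other.

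The members and lists were chosen with earlier results of these data known, and *Met* and *Hgf* are also among genes the study displayed from these samples, so none is independent evidence of its direction. Named genes are the members, the called genes of the lists, 9 genes given whether called or not (*Plg*, *Serpine2*, *Serpini1*, *Spint1*, *Spint2*, *Hgfac*, *St14*, *Cd44* and *Anxa2*), and for each member the 3 genes of nearest profile among protein-coding genes whose mean reached 1 FPKM under NL or LD. *Mst1*, *Mst1r*, *Plxnb1*, *Nrp1*, *Gab1*, *Pik3ca*, *Cbl*, *Plgrkt*, *Eno1*, *Vldlr*, *Lrp1* and the single marker genes were named after their values were seen. Some genes of the lists are not reported here and were left out of the counts and sums. A floor is 3 reads per retina and covers counting error only. Alternatives changed the constant, filter, scaling, trend, test, threshold, block and the retinas included.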

Additional observations from a re-analysis of the deposited data

Results flagged for a closer look

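In 5 of the 54 sets of 5 retinas examined (the members, the named genes of the lists and the 3 ratios, each in NL and in LD), the highest or lowest retina stood apart from the other 4 by Dixon's 95% criterion, where chance gives about 1 in 20 sets, or 2.70. None of them was a set of values of a member or a ratio, and all were NL sets. In NL-1, *Anxa2* had 2.91 FPKM and the next NL retina 2.17 FPKM, and *Itgb2* had 0.735 FPKM and the next 0.343 FPKM. In NL-8, *Spint1* was at 0.420 FPKM against at least 0.681 FPKM in the others. In NL-5, *Plg* had 0.0531 FPKM and the next 0.0209 FPKM, and *Serpinb2* at 0.0210 FPKM, which is 1 read, against 0 in the others.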

How the results depend on the processing

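*Met*, *Plau* and *Plat* kept their direction and their call under each of the 22 alternatives, with log2 fold changes of 1.25 to 1.69, 1.84 to 5.07 and 1.30 to 1.75. *Hgf* was higher after LD and not called under its 21 alternatives (0.07 to 0.29, adjusted p = 0.277 to 0.831). *Plaur* kept its call under 20 of 21, and with a constant of 1 its log2 fold change was 0.92. A filter at 1 FPKM left *Hgf* and *Plaur* untested. Leaving out each retina in turn gave 1.46 to 1.68 for *Met*, 0.07 to 0.27 for *Hgf*, 3.83 to 4.25 for *Plau*, 1.45 to 1.75 for *Plat* and 2.54 to 2.80 for *Plaur*.

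With a constant of 1 the ratio *Plaur*/*Plat* was reversed at -0.37 (exact permutation p = 0.0238 after adjustment). With the closest pairs averaged, the ratios *Plau*/*Plat*, *Plaur*/*Plat* and *Met*/*Hgf* rose by 2.18, 0.99 and 1.37, at the smallest exact p the 4 and 3 samples allow, 0.0571.

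Whether the 4 replicate numbers that both groups share pair the retinas is not given in the labels. The deviations of same-numbered retinas correlated at 0.06, 0.07, -0.01 and -0.09. Such low values show no shared deviation, but cannot tell whether the numbers mark pairs. With the replicate block the log2 fold changes were 1.50 for *Met*, 0.14 for *Hgf*, 3.80 for *Plau*, 1.58 for *Plat* and 2.61 for *Plaur*, with the same calls, and these 3 ratios rose by 2.21, 1.02 and 1.36 at the smallest exact p of 4 pairs, 0.125. With the block *Itga6*, *Itgb4*, *Anxa2* and *Itgam* were not called (adjusted p = 0.0333, 0.0678, 0.0122 and 0.0137), and *Itgb4* was also not called on the same retinas without it (0.0185).

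Of all genes, 1595 were called, 816 with a constant of 1, 808 with the replicate block (which leaves out NL-5 and LD-6; 1182 without a block on the same 8 retinas) and 6818 at an adjusted p under 0.05 with no minimum fold, and 1379 to 1603 with 1 retina left out. In the lists, 12 were called, 8 with a constant of 1, 8 with the replicate block (11 on the same retinas without it), 9 with the filter at 1 FPKM, 10 with the closest pairs averaged, at most 13 with other scalings or limma-voom, and 32 at an adjusted p under 0.05 with no minimum fold. The median log2 fold change of all genes was 0.090 in TPM and 0.109 without the factor per retina, beside -0.012, and the members' directions held under both. *Plau* and *Plaur* rest on at most 14 and 9 reads in any NL retina, so the size of their rise is less certain than that of *Met* and *Plat*.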
